A study of Mus musculus with 32 samples.

Results

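Mouse-host experiment 4 is 1 of the 4 experiments in which parathyroid gland (PTG) cells of embryonic stem cell (ESC) origin were collected from Gcm2-/- mice. Its members are the 4 libraries titled Experiment 4, of 16 mouse-host libraries and 32 libraries in the whole series, and they were set against the 12 libraries of experiments 1, 2 and 3. The members were chosen by title and not by any measured value. All 16 mouse-host libraries carry the same strain label: Gcm2-/- hosts on a BDF1B6 background, complemented with ESC that carry a tdTomato reporter in Pth, at 9 weeks of age. Experiment 4 is labelled male and experiments 1, 2 and 3 are labelled female, so sex label and experiment cannot be told apart. Native cells came from C57BL/6 mice with 1 Pth allele carrying P2A-tdTomato, in control experiment 1 (labelled male, 8 weeks) and control experiment 2 (labelled female, 11 weeks), with 4 libraries each. The series also holds 4 libraries of grafted ESC-derived cells from Gcm2-/- mice of the same strain label (labelled male, 12 weeks) and 4 of mouse ESC-derived cells from neonatal Gcm2-/- Wistar rats (sex unknown). Each library was SMART-Seq cDNA from 10 to 20 red cells picked by micromanipulator. The labels call the libraries biological replicates but do not say which came from separate animals, so a p-value measures the spread between these libraries, which may be technical.

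The parathyroid glands secrete parathyroid hormone, the product of Pth, when the calcium-sensing receptor Casr reports low blood calcium. Gcm2 encodes the transcription factor without which the gland does not form, and Gata3, Tbx1 and Pax9 act earlier in the pharyngeal pouches that give rise to it. In blastocyst complementation donor stem cells fill the place of the organ that the host embryo cannot build.

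The depth of the libraries of experiment 4 lay within the range of the other mouse-host libraries. They held 9965688 to 12454231 reads each, against 9470744 to 15098391 in the other 12, and 12325 to 13131 genes had at least 1 read. The mean Pearson correlation of log expression between libraries was 0.807 within experiment 4. It was 0.795 between experiments 4 and 3, 0.783 between experiments 4 and 2, and 0.753 between experiments 4 and 1, while libraries within experiment 1 correlated at 0.759. By this measure experiment 4 lay nearest to experiment 3 and farthest from experiment 1. Experiment 1 also correlated at 0.756 with experiment 2 and at 0.756 with experiment 3. Its low correlation was thus not particular to experiment 4. Against the male label, the Y-linked gene Ddx3y had 0 reads in all 4 libraries of experiment 4 and Eif2s3y had 0, 0, 0 and 1 read. The 4 graft libraries, also labelled male, had 0 reads of either gene. The 12 libraries of experiments 1, 2 and 3 had 0 or 1 read of each. The native libraries labelled male held 719 to 1942 reads of Ddx3y and 732 to 1537 of Eif2s3y. It is not stated to which of the donor cells and the host the sex label belongs.

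Pth, which marks the picked cells, took 12.1% of gene-assigned reads in replicate 1 of experiment 4 and 8.90%, 8.60% and 8.63% in replicates 2, 3 and 4. The 12 other libraries ran from 6.88% over a median of 8.60% to 9.92%. Replicate 1 alone lay above them. The mean was 9.56% ± 1.70 (SD, n = 4) against 8.49% ± 1.01 (SD, n = 12), which did not pass an exact two-sided permutation test (p = 0.149, adjusted p = 0.408 over 6 library summaries). Without replicate 1 the difference of means fell from 1.07 to 0.220 percentage points. Chga, which encodes the granule protein chromogranin A, took 20.6% ± 1.17 (SD, n = 4) against 21.3% ± 1.44 (SD, n = 12), with an adjusted p of 0.462 in the same exact permutation test.

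Transcripts of the mitochondrial genome, which encode subunits of the respiratory chain and the ATP synthase, took a larger share of reads in experiment 4. The shares were 3.90%, 3.08%, 2.93% and 2.51% in its 4 libraries. They were 1.34% to 2.65% in experiment 1, 1.45% to 2.42% in experiment 2 and 2.02% to 2.61% in experiment 3. Replicates 1, 2 and 3 of experiment 4 were above all 12 other libraries, and replicate 4 was within their range. The means were 3.11% ± 0.584 (SD, n = 4) and 2.04% ± 0.514 (SD, n = 12). This difference passed the exact permutation test (p = 0.0022, adjusted p = 0.0132). That test treated all libraries alike whatever their experiment, so it takes no account of differences between experiments. Without replicate 1 the difference was 0.805 percentage points and the adjusted p, by exact permutation, was 0.0923. The call was also lost without replicate 2 (adjusted p = 0.0659) and without experiment 2 (adjusted p = 0.0606), both by exact permutation. The 8 native libraries ran from 2.19% to 3.46%. Of the nuclear genes of oxidative phosphorylation none was called (0.111% of all genes were), and 18 of 31 tested genes were above 0 in log2 fold change, with a median of 0.07 beside 0.03 over all genes.

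**Figure D1:**
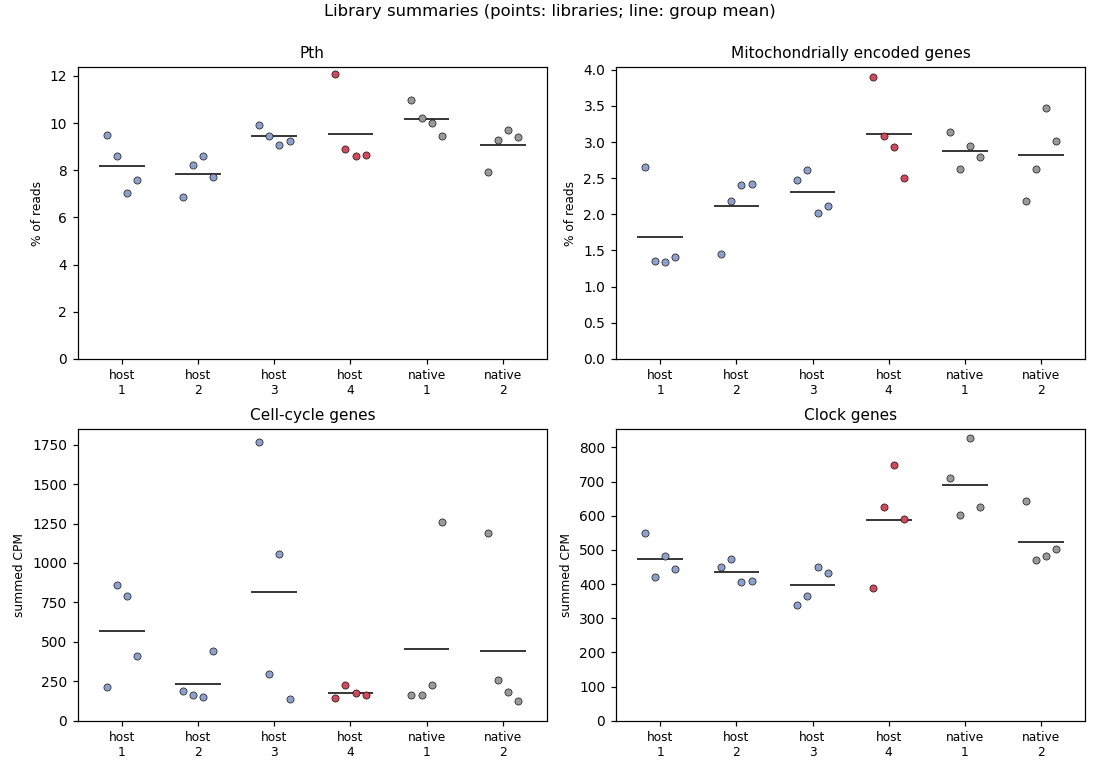
Share of reads from Pth and from mitochondrially encoded genes (percent), and summed CPM (reads per 1000000, scaled by TMM) of 25 cell-cycle and 20 clock genes, in each library of mouse-host experiments 1 to 4 (host) and of the native control experiments (native). Points are libraries and lines are group means; replicate 1 of experiment 4 stands above its group in Pth share at 12.1%, and 3 of the 4 libraries of experiment 4 exceed all 12 others in mitochondrial share.

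Experiment 4 differed from the mean of the other mouse-host experiments in a number of genes that varied with the test. Of 11757 autosomal genes tested, 13 were called at an adjusted p below 0.05 (0.111%; edgeR quasi-likelihood test, Benjamini-Hochberg adjustment over all genes tested), 10 higher (0.0851%) and 3 lower (0.0255%). DESeq2 called 231 genes in the same contrast, 72 higher and 159 lower, among them all 13. Before adjustment 984 genes (8.37%) had a p below 0.05, 487 higher (4.14%) and 497 lower (4.23%). The same test called 327 genes (2.78%) for experiment 1 against the mean of the other 3 experiments, 10 (0.0851%) for experiment 2 and 13 (0.111%) for experiment 3. These 4 contrasts share libraries. Against single experiments, edgeR called 191 genes between experiments 4 and 1 (1.62%), 14 between experiments 4 and 2 (0.119%) and 0 between experiments 4 and 3 (0%). The last comparison had 557 genes (4.74%) at an unadjusted p below 0.05, and DESeq2 called 103 genes in it. No gene was called in 1 direction against each of the 3 experiments by edgeR, while DESeq2 gave 28 such genes.

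The 13 calls depended on which experiments were compared and on how differences between experiments were counted. Without experiment 1, edgeR called 0 genes (819 at an unadjusted p below 0.05). When differences among experiments 1, 2 and 3 entered the spread, as in a fit of 2 groups, 0 genes were called (768 unadjusted), and with counts summed per experiment 0 were called (421 unadjusted). Without replicate 1 of experiment 4 there were 3 calls, and without its replicate 4 there were 4. Other settings gave more calls: 52 without experiment 3, 25 in a fit of all 32 libraries and 24 on log2(TPM + 1) with limma. Of the 16 fits that left out 1 library, Dsc1 and Spc24 were called in all 16, Sgk1 in 7, Zfp113 in 3 and Rnf187 in 1, and the other called genes in 10 to 14. The gene values below therefore describe these 4 experiments, and the side of experiment 4 rests on a single experiment. The rule that was to select genes by agreement across all 3 comparisons selected none, so the genes below other than those of the parathyroid list were named after their values were seen.

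**Figure D2:**
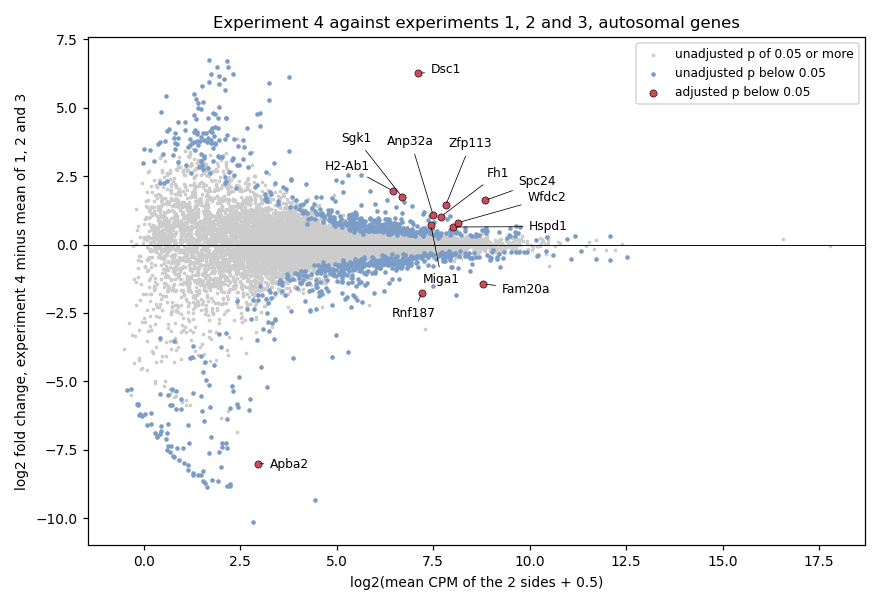
Log2 fold change of experiment 4 against the mean of experiments 1, 2 and 3 (vertical) by log2 of mean CPM plus 0.5 (horizontal) for 11757 autosomal genes. The 13 called genes are labelled in red; most have high CPM and moderate fold changes, apart from Dsc1 and Apba2.

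Among the higher genes, Fh1 and Wfdc2 were those called genes in which all 4 libraries of experiment 4 lay above all 12 others. Fh1 encodes fumarate hydratase of the citric acid cycle. Its levels in experiment 4 were 391, 220, 249 and 252 CPM (reads per 1000000 reads of the TMM-adjusted library size), and the 12 others ran from 95.8 over a median of 143 to 171. Every library of experiment 4 was higher, and the log2 fold change was 1.02 (SE 0.17, edgeR adjusted p = 0.0232). The native range of Fh1, 74.9 to 211 CPM, held all 12 other mouse-host libraries and 0 of the 4 of experiment 4. Wfdc2 encodes a secreted protein of the whey acidic protein family. It stood at 414, 367, 384 and 280 CPM in experiment 4, against 144 to 268 with a median of 204 in the others, a log2 fold change of 0.80 (SE 0.14, edgeR adjusted p = 0.0278). Here the native range, 264 to 492 CPM, held all 4 libraries of experiment 4 and 1 of the 12 others.

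Sgk1, which encodes a kinase induced by glucocorticoids and serum, was higher in 3 of the 4 libraries. Its levels were 165, 73.8, 208 and 186 CPM, and the others ran from 14.3 over a median of 47.8 to 79.1. Replicate 2 of experiment 4 thus fell inside the range of the others. The log2 fold change was 1.74 (SE 0.32, edgeR adjusted p = 0.0368), and fold changes against experiments 1, 2 and 3 were 2.03, 1.63 and 1.55. Sgk1 was the 1 called member of a list of glucocorticoid- and androgen-responsive genes, beside 0.111% of all genes. Of 13 tested members 9 were above 0 (beside 52.4%) and 2 had an unadjusted p below 0.05 (15.4% beside 8.37%), with a median of 0.33 beside 0.03.

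H2-Ab1, which encodes the beta chain of an MHC class II molecule, stood at 212, 45.8, 90.1 and 191 CPM. The other mouse-host libraries ran from 11.2 over a median of 44.8 to 95.9 CPM. Replicates 1 and 4 were above this range and replicates 2 and 3 inside it. The log2 fold change was 1.95 (SE 0.33, edgeR adjusted p = 0.0232). Reads of H2 genes can be shared with related copies, so this value is uncertain. Its partner chain H2-Aa had 5.65 CPM in replicate 1 and 0 in replicates 2, 3 and 4. Cd74, the invariant chain, had at most 0.192 CPM, H2-Eb1 at most 1.23 CPM and Ciita 0 reads. H2-DMa stood at 33.6, 0.661, 19.2 and 22.2 CPM and H2-DMb1 at 12.4, 29.2, 7.31 and 13.8 CPM. They had 787 and 658 reads, against 1583 and 619 in the other 12 libraries together. Of 7 listed class II genes 3 were tested, all above 0 (beside 52.4% of all genes), with a median of 1.90 beside 0.03. H2-Ab1 was the 1 called member, beside 0.111% of all genes. In the same 4 libraries the summed level of 11 macrophage markers was 14.4, 0, 0.301 and 5.07 CPM, against 0 to 7.21 in the other 12. The sum of 13 T cell markers was 24.1, 2.74, 1.90 and 11.9 CPM, against 0.0864 to 42.2. Both sums were highest in replicates 1 and 4, the libraries with the highest H2-Ab1. In experiment 4, 8 of 11 macrophage markers, among them Adgre1, Csf1r and C1qa, and 10 of 13 T cell markers, among them Cd3e, Cd4 and Ptprc, were at 0. Cd8a and Cd8b1 had 27 and 17 reads there, against 17 and 16 in the other 12 libraries together, and the macrophage marker Cd68 had 5 against 49. The macrophage sum came mainly from Lyz2 (14.4 CPM in replicate 1) and Mrc1 (4.60 in replicate 4), and the T cell sum mainly from the kinase gene Lck. The part of these cells in the H2-Ab1 result was not tested.

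Dsc1, which encodes the desmosomal cadherin desmocollin 1, had the smallest adjusted p, and it separated experiments 3 and 4 from experiments 1 and 2. Its levels were 127, 219, 434 and 198 CPM in experiment 4 and 49.7, 95.3, 131 and 106 in experiment 3. In experiment 2 they were 6.19, 0.169, 0.0807 and 0.109 CPM, and in experiment 1 they were 0.0864 to 0.345. Experiments 4 and 3 overlapped, through replicate 1 of experiment 4 and replicate 3 of experiment 3. The log2 fold change against the mean of the 3 experiments was 6.25 (SE 0.59, edgeR adjusted p = 4.71e-05), and against experiment 3 alone it was 1.36 (SE 0.70, edgeR adjusted p = 1). The mean of the 3 experiments was taken on the log scale, so the levels near 0 in experiments 1 and 2 enlarge the first value. In CPM the mean of Dsc1 was 244 in experiment 4 and 32.4 in the other 12 libraries. All 4 libraries of experiment 4 were above the native range of 5.93 to 16.6 CPM. The 4 graft libraries reached at most 8.65 CPM and the 4 rat-host libraries at most 2.32 CPM.

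As in Dsc1 and Sgk1, in 5 other called genes with higher levels the log2 fold change was largest against experiment 1 and smallest against experiment 3. Spc24, which encodes a subunit of the NDC80 kinetochore complex, stood at 670, 757, 738 and 449 CPM in experiment 4. It was at 48.0 to 118 CPM in experiment 1, 228 to 364 in experiment 2 and 347 to 512 in experiment 3. Replicate 4 of experiment 4 overlapped experiment 3. Log2 fold changes against experiments 1, 2 and 3 were 2.97, 1.23 and 0.62, and the main value was 1.61 (SE 0.18, edgeR adjusted p = 0.000431). Zfp113, which encodes a zinc-finger protein, stood at 309, 341, 362 and 222 CPM, with 13.9 to 79.3 in experiment 1 and 147 to 292 in experiments 2 and 3. Its log2 fold changes were 2.97, 0.82 and 0.50 against experiments 1, 2 and 3.

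Miga1, Hspd1 and Anp32a showed the same order at smaller size. Miga1, whose product acts in mitochondrial fusion, had log2 fold changes of 1.11, 0.84 and 0.19 against experiments 1, 2 and 3. Hspd1 encodes the mitochondrial chaperonin Hsp60, and its fold changes were 0.94, 0.70 and 0.28 on the log2 scale. Levels of Hspd1 in experiment 4 were 354, 325, 253 and 308 CPM, against 146 to 265 in the other 12 libraries, so replicate 3 overlapped them. Anp32a, which encodes an acidic nuclear protein, had fold changes of 2.28, 1.12 and -0.20 on the log2 scale. It is the 1 gene among the 10 higher ones whose level in experiment 4 was below that of experiment 3, with means of 225 and 259 CPM.

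Fam20a, Apba2 and Rnf187 were the called genes with lower levels in experiment 4. Fam20a encodes a pseudokinase partner of the secretory-pathway kinase Fam20C. Its levels were 154, 351, 243 and 198 CPM, against 331 to 964 with a median of 681 in the others. Replicate 2 of experiment 4 overlapped replicate 4 of experiment 2, and the log2 fold change was -1.44 (SE 0.24, edgeR adjusted p = 0.0232). In native cells Fam20a stood at 267 to 826 CPM, a range that held 1 library of experiment 4 and 10 of the 12 others.

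Apba2, which encodes a neuronal adaptor that binds the amyloid precursor protein, had 1 read in the 4 libraries of experiment 4 together and 1892 reads in the other 12. Per read assigned to genes, the others were higher by a ratio of 584. The exact 95% counting interval of 105 to 23080 covers counting error only. In experiment 3 Apba2 was at 2.68, 0, 4.04 and 1.51 CPM, in experiment 1 at 5.98 to 22.4 and in experiment 2 at 9.61 to 40.5. The native libraries of control experiment 1 reached down to 0.0718 CPM.

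Rnf187, which encodes a RING-type ubiquitin ligase, stood at 26.1, 70.0, 90.5 and 52.3 CPM in experiment 4. Experiment 3 was at 30, 106, 135 and 76.0 CPM, while experiments 1 and 2 ran from 232 to 421. Experiments 3 and 4 overlapped, and both lay below experiments 1 and 2. The log2 fold change was -1.75 (SE 0.33, edgeR adjusted p = 0.0479), with -0.54 against experiment 3 alone. Mean Rnf187 was 342, 276 and 86.8 CPM in experiments 1, 2 and 3, and 59.7 in experiment 4. For Fam20a these means were 801, 634 and 517 CPM, and 236 in experiment 4. Both lower genes were thus farthest from experiment 1 and nearest to experiment 3.

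**Figure D3:**
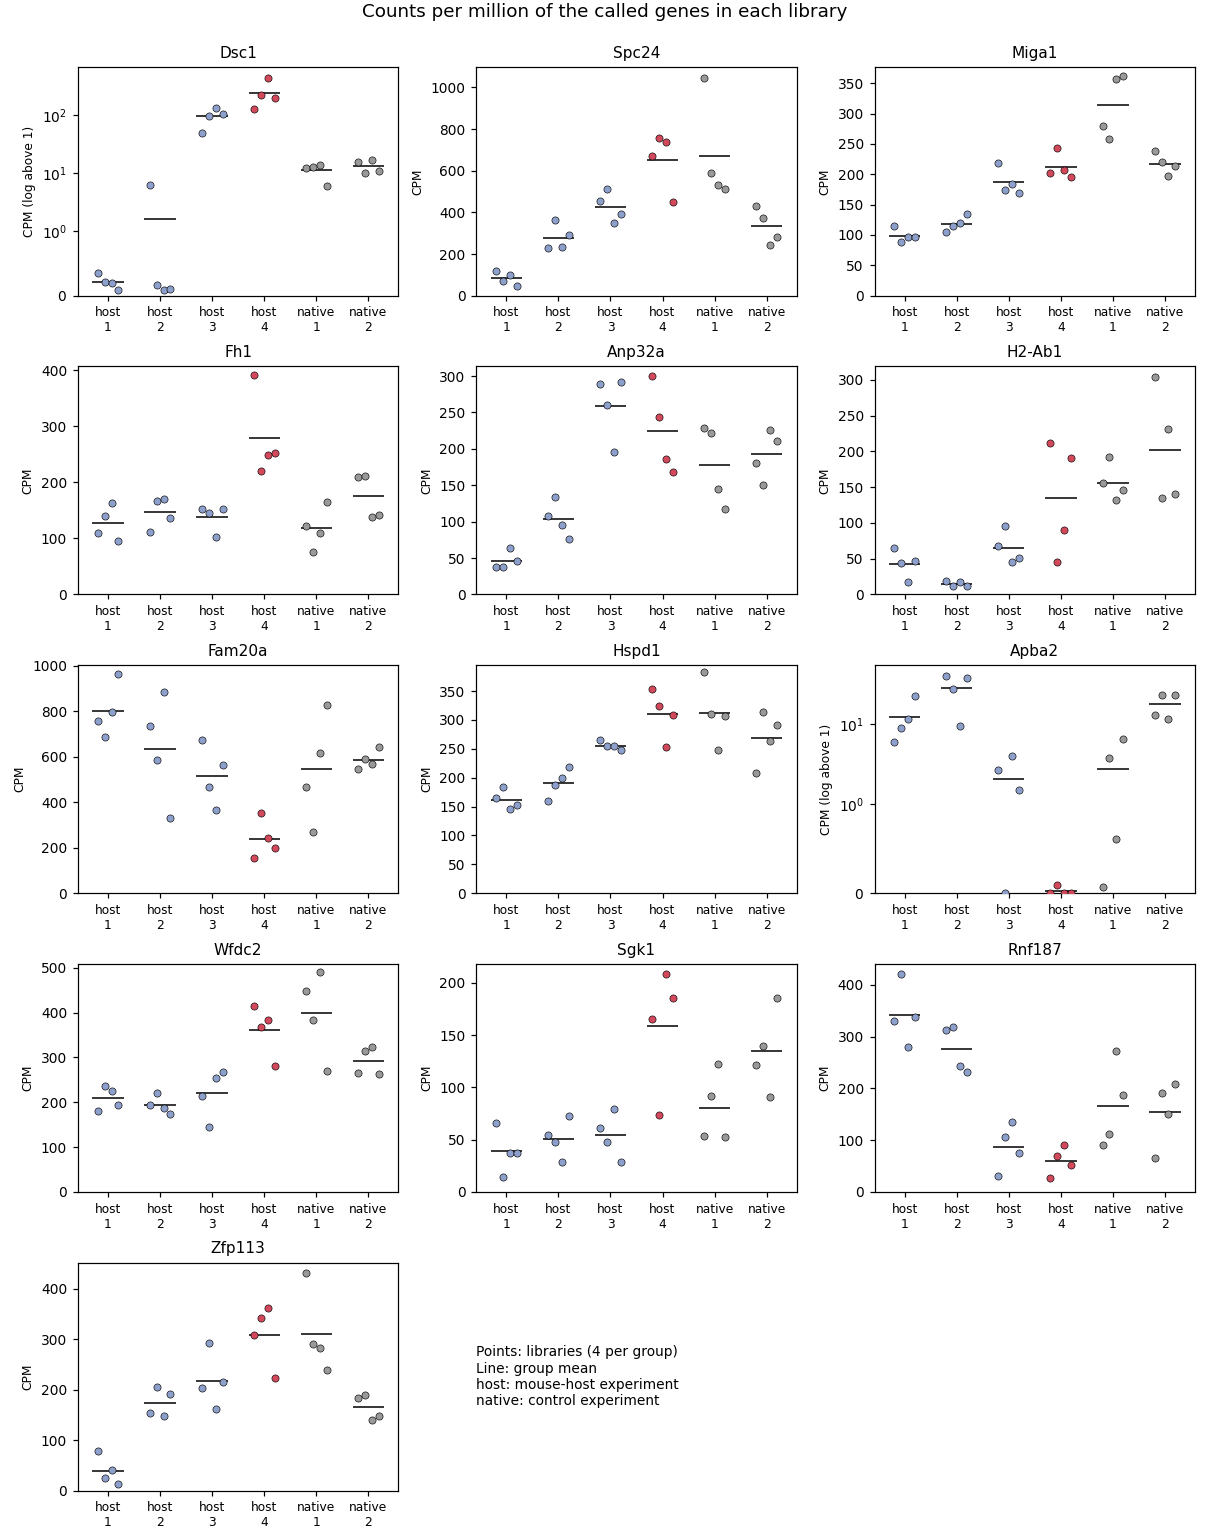
CPM of the 13 called genes in each library of mouse-host experiments 1 to 4 (host; experiment 4 in red) and of the native control experiments (native, grey). Lines are group means and the Dsc1 and Apba2 axes are logarithmic above 1 CPM. In Dsc1 and Rnf187 experiments 3 and 4 lie together. In Fh1 and Wfdc2 experiment 4 lies above the other mouse-host experiments, and in Wfdc2 it lies within the native range.

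**Figure D4:**
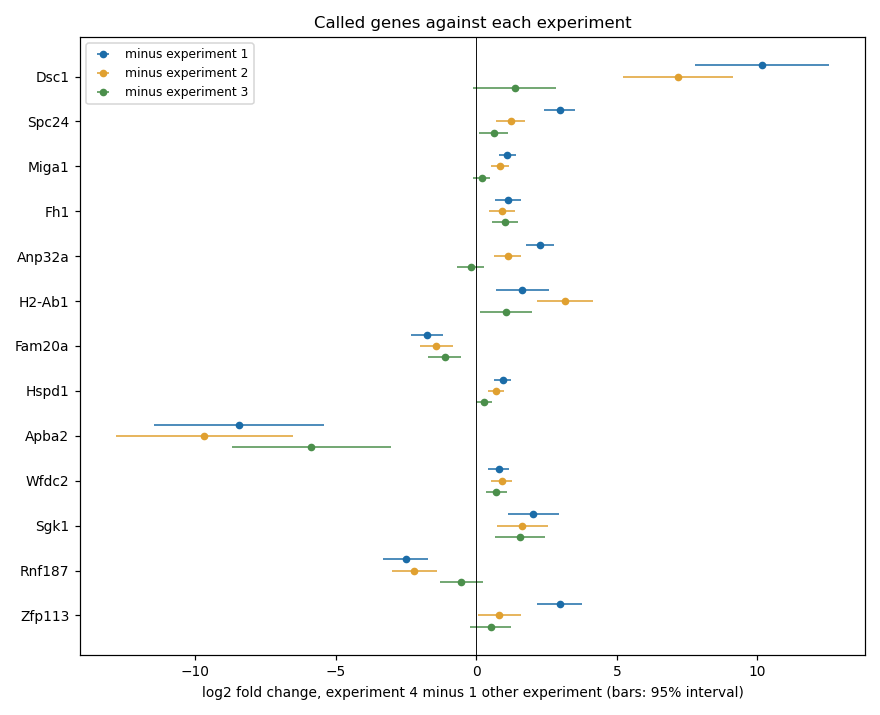
Log2 fold change of the 13 called genes in experiment 4 minus experiment 1, 2 or 3, with 95% intervals from the edgeR fit. The comparisons share the libraries of experiment 4; for Dsc1, Miga1, Hspd1, Anp32a, Rnf187 and Zfp113 the interval against experiment 3 includes 0.

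Reads of each called gene were also summed by transcript, a check added after the data were seen. The leading transcript was protein-coding for each of the 13 genes. It carried 61.3% of Dsc1 reads in experiment 4 and 67.9% in the others, and 98.6% and 98.8% of Fh1 reads. For Spc24 the shares were 99.99% and 99.0%.

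The parathyroid genes gave no call. Of 18 listed genes 16 were tested, 0 were called beside 0.111% of all genes, and 3 had an unadjusted p below 0.05, all lower in experiment 4 (18.8% of the list beside 8.37% of all genes). Of the 16, 5 were above 0 in log2 fold change, beside 52.4% of all genes tested, and the list's median was -0.24 beside 0.03 over all genes. Calb1 and Trpm6 did not pass the filter on low counts.

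Tbx1, a T-box factor of the pharyngeal pouches, was the member with the largest difference. It stood at 9.10, 9.72, 24.6 and 10.5 CPM in experiment 4, 57.8 to 98.3 in experiment 1 and 58.0 to 95 in experiment 2. In experiment 3 it stood at 7.36, 56.2, 91.1 and 15.1 CPM, so that 2 libraries of experiment 3 shared the low levels of experiment 4. The log2 fold change was -2.28 (SE 0.52, edgeR adjusted p = 0.107). Without experiment 3 the edgeR adjusted p was 0.00268. The 8 native libraries ran from 12.2 to 108 CPM.

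Gata3, a zinc-finger factor needed for the gland, stood at 371, 473, 483 and 594 CPM, against 520 to 796 with a median of 651 in the others. Replicate 4 overlapped them, and the log2 fold change was -0.44 (SE 0.12, edgeR adjusted p = 0.225). The vitamin D receptor gene Vdr stood at 309, 480, 413 and 494 CPM against 470 to 764, a log2 fold change of -0.45 (SE 0.13, edgeR adjusted p = 0.244). DESeq2 called Tbx1, Gata3 and Vdr lower, with adjusted p of 5.7e-05, 0.0222 and 0.0262.

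Gcm2 itself stood at 701, 917, 1026 and 872 CPM in experiment 4, inside the range of the others, 607 to 1561. It lay above experiment 1 by 0.30 and below experiments 2 and 3 by 0.27 and 0.69 on the log2 scale. Casr stood at 285, 726, 614 and 568 CPM against 369 to 982, with replicate 1, the library with the highest Pth share, below all others. Its log2 fold change was -0.25 (SE 0.19, edgeR adjusted p = 0.841). Replicate 1 was also the lowest of its experiment for Gcm2, Gata3, Vdr, Kl, Pax9, Gfra4, Tbx1, Cdc73 and Fgfr1. Kl, which encodes the FGF23 co-receptor Klotho, and Pax9 had log2 fold changes of 0.24 and 0.29. Cdc73, the gene of parafibromin, and Gfra4 were at -0.50 and -0.44. Eya1, Men1, Fgfr1 and Hoxa3 lay between -0.12 and 0.07, and their signs changed with the scaling or with single libraries left out. The Pth fold change was 0.19 (SE 0.11, edgeR adjusted p = 0.731).

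**Figure D5:**
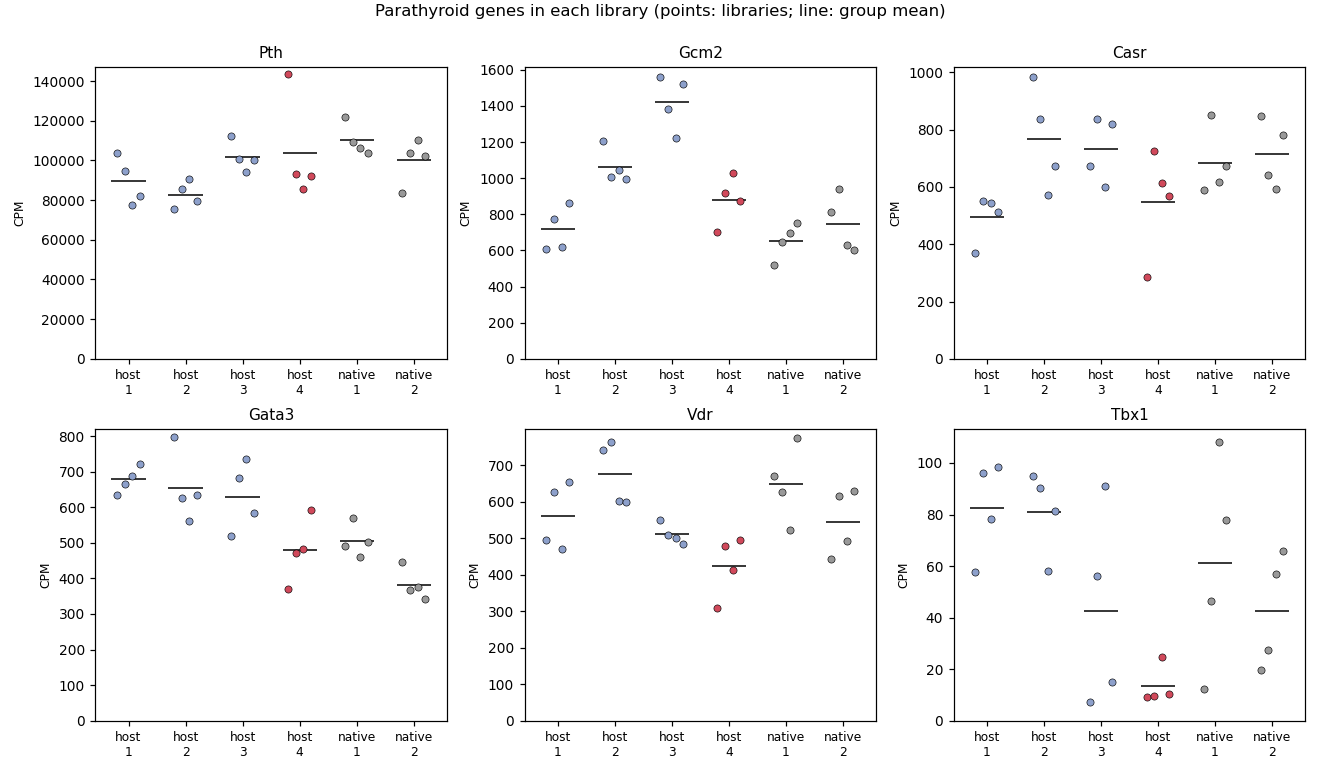
CPM of 6 parathyroid genes in each library of mouse-host experiments 1 to 4 (host; experiment 4 in red) and of the native control experiments (native, grey), with group means as lines. Tbx1 is low in all 4 libraries of experiment 4 and in 2 of experiment 3; replicate 1 of experiment 4 is highest in Pth and lowest in Casr.

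No cell-cycle gene was called, but their levels in experiment 4 lay near the lower end of the range. The 25 listed genes summed to 145 to 224 CPM in experiment 4 and to 140 to 1765 CPM in the others, with a median of 354, and the native libraries ran from 122 to 1262. Of 21 tested, 19 were below 0 in log2 fold change with a median of -1.78, and 9 had an unadjusted p below 0.05 (42.9% beside 8.37% of all genes), all lower. The median differed between experiments: it was -1.85 against experiment 1, -0.21 against experiment 2 and -3.79 against experiment 3. Mcm6, a subunit of the replicative helicase, had 2 reads in the 4 libraries of experiment 4 and 5444 in the other 12. Per read assigned to genes, the others were higher by a ratio of 840 (exact 95% counting interval 233 to 6940). The edgeR adjusted p of Mcm6 was 0.0723. Mcm6 in the 12 others ranged from 0.17 to 125 CPM, and native libraries of control experiment 1 had 0, 0.266, 14 and 0 CPM.

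The mitotic kinase genes Aurkb and Plk1 had 0 reads in experiment 4, against 757 and 937 reads in the others. Against a floor of 3 reads over experiment 4, the others were at least 77.9-fold and 96.4-fold higher. These reads were concentrated in few libraries: Plk1 exceeded 5 CPM in 4 of the 12, and Cdc20, an activator of the anaphase-promoting complex, stood at 530 CPM in replicate 1 of experiment 3 and at most 31.4 in the other 11. Cdc20 in experiment 4 stood at 0.0958, 2.17, 4.11 and 0.563 CPM. In experiment 2 Aurkb and Plk1 had 59 and 15 reads. Not all mitotic genes were lowest in experiment 4: Mki67, Aurka and Bub1b had 152, 133 and 174 reads there. They had 254, 112 and 240 reads in experiment 1, 4, 20 and 78 in experiment 2, and 647, 941 and 492 in experiment 3. Pcna stood at 62.7 to 97.6 CPM in experiment 4, inside the range of the others, 52.0 to 195. In bulk samples of few cells, fewer cycling cells and less transcript per cell cannot be told apart.

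Clock genes gave no call either. Of 17 tested genes 13 were above 0, with a median log2 fold change of 0.60, and 4 had an unadjusted p below 0.05, all higher (23.5% beside 8.37% of all genes). Over all genes 52.4% were above 0, with a median of 0.03. Per3, a period gene of the negative limb, stood at 12.9, 13, 16.8 and 14.7 CPM, above all 12 others (1.02 to 10.4), with a log2 fold change of 1.93 (SE 0.67, edgeR adjusted p = 0.383). Bhlhe40, a repressor of clock output, stood at 24.2, 91.4, 60.2 and 51.8 CPM against a median of 9.07 in the others, which reached 49.5, so replicate 1 overlapped them. Arntl, which encodes the activator BMAL1, was at 0.0958, 0.0944, 5.91 and 22.8 CPM against 7.01 to 39.8. Its log2 fold change was -1.60 (SE 0.94, edgeR adjusted p = 0.736). The labels give no time of collection.

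Among protein-folding genes 1 was called: Hspd1, described above, of 15 heat-shock genes (0.111% of all genes were called). Of the 15, 11 were above 0, beside 52.4% of all genes, with a median of 0.21 beside 0.03. An unadjusted p below 0.05 was found for 5, of which 4 were higher and 1 lower (33.3% beside 8.37% of all genes). Its partner Hspe1 had a log2 fold change of 0.52 (edgeR adjusted p = 0.44). Of 23 tested genes of the unfolded protein response 18 were above 0, with a median of 0.17, and 4 had an unadjusted p below 0.05 (17.4% beside 8.37% of all genes). Canx, the chaperone calnexin, led them at 671, 453, 494 and 562 CPM, with log2 fold changes of 0.95, 0.29 and 0.23 against experiments 1, 2 and 3. Of 34 ribosomal protein genes 31 were above 0 (beside 52.4% of all genes), with a median of 0.17, and without replicate 1 of experiment 4 this median was -0.01.

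Genes of lysosomes and epithelial junctions included members at low levels in experiment 4. Lamp1, a lysosomal membrane protein gene, stood at 48.8, 137, 167 and 60.6 CPM. It was at 45.2 to 253 CPM in experiment 3 and at 430 to 800 in experiments 1 and 2, and the log2 fold change was -1.86 (SE 0.38, edgeR adjusted p = 0.0787). The lysosome list as a whole had a median of 0.02, with 12 of 23 genes above 0. Of the 23, 5 had an unadjusted p below 0.05, all lower (21.7% beside 8.37% of all genes). F11r, which encodes a junctional adhesion molecule, stood at 90.5, 78.6, 104 and 82.3 CPM, against 96.4 to 305 in the others (log2 fold change -0.74, SE 0.18, edgeR adjusted p = 0.14). Of the junction list 10 of 20 tested genes were above 0, with a median of -0.01. Here 4 genes had an unadjusted p below 0.05, all lower (20% beside 8.37% of all genes).

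In 20 genes all 4 libraries of experiment 4 lay above all 12 others (0.170% of the genes tested) and in 13 they lay below (0.111%). Besides Fh1 and Wfdc2 none of these was called. Dok6, which encodes a docking protein of receptor tyrosine kinases, was at 6.22, 3.49, 7.61 and 8.91 CPM, with 9 of the 12 others at 0 and the highest at 0.492. Its edgeR adjusted p was 0.112. Gpr183, the receptor for oxysterols on immune cells, stood at 84.5, 42.8, 39.3 and 39.0 CPM against 0 to 30.4 (edgeR adjusted p = 0.46). Anpep, which encodes aminopeptidase N, stood at 99.5, 226, 326 and 288 CPM against 367 to 563, with a log2 fold change of -0.96 (SE 0.22, edgeR adjusted p = 0.11). Hhatl stood at 11.0, 0.189, 7.81 and 0.281 CPM against 18.4 to 119 (edgeR adjusted p = 0.0919).

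Markers of neighbouring cell types differed in level. The 8 fibroblast markers summed to 0.282 to 1.72 CPM, while replicate 4 of experiment 2 stood apart from the other 11 libraries at 2682 CPM. Summed thyroid follicular markers reached 0.0958 CPM and endothelial markers 0.200 CPM in experiment 4. Neuronal markers were at 0 there, and thymic epithelial markers summed to 18.2, 6.61, 8.42 and 32.6 CPM against 0.654 to 23.4 in the others, so replicate 4 was above all 12. Foxn1, the defining factor of thymic epithelium, had 0 reads in experiment 4. The 7 thyroid C cell markers summed to 0.0958, 27.5, 3.31 and 7.97 CPM, against 0 to 4.58 in the others, so replicates 2 and 4 were above all 12. This sum came from the calcitonin gene Calca (284 reads in experiment 4, 145 in the others) and, in replicate 2, from the serotonin transporter gene Slc6a4 (126 and 0 reads), while the other 5 markers were at 0. The part of these cell types in the results was not tested. Without replicate 4 of experiment 2 there were 13 calls again, of which 11 were among the 13 genes.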

How the data were processed

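RNA was measured in 32 SMART-Seq HT libraries. The authors quantified transcripts with Salmon against GRCm39, per the submitters' processing notes, with no version or annotation named in those sources. The authors' deposited tables hold estimated counts (expected counts of reads) and TPM for 116747 transcripts. Of these 115685 matched a gene name in GENCODE release M21, which describes GRCm38, so coordinates are left out here. Transcripts with no match carried 0.478% of reads of the 16 mouse-host libraries. Estimated counts were summed per gene and rounded. Reads carry no molecular identifiers; intervals and floors therefore hold for counting error alone.

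The 16 mouse-host libraries were fitted with edgeR 4.0.16 in R 4.3.3: 32666 autosomal genes entered, TMM scaling, default expression filter by experiment, a coefficient per experiment, robust quasi-likelihood test with 12 residual degrees of freedom, and Benjamini-Hochberg adjustment over 11757 genes. The contrast was experiment 4 minus the equal-weight mean of experiments 1, 2 and 3, with that mean taken over coefficients on the log scale. Calls were made where the adjusted p was below 0.05. CPM values use TMM factors over all 32 libraries. Shares of reads are of reads assigned to genes and were compared by exact permutation of libraries regardless of experiment (scipy 1.17.1). TPM, limma 3.58.1 and DESeq2 1.42.0 served for alternatives. On simulated data with 50 genes per fold size (11482 genes), the main test called 16% of genes changed 2-fold and 62% of genes changed 16-fold, with 3 false calls. The simulation gave all experiments 1 common mean per unchanged gene. It therefore cannot show how many false calls differences between experiments would give.

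Members, gene lists and tests were chosen with earlier results of these data known. Genes were to be named where called against each experiment with no overlap; this named none. The rule also took all tested parathyroid genes (2 are not reported here), and other lists with 2 or more called members, of which there were none. Of 746 list symbols 15 had no match. No 2 libraries of an experiment agreed within sampling noise: the lowest chi-square per degree of freedom was 44.5.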

Additional observations from a re-analysis of the deposited data

Results flagged for a closer look

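In groups of 4 libraries, 9 of 132 sets of values had 1 library whose gap to the nearest other exceeded Dixon's 95% limit, where chance gives about 1 in 20. In experiment 4 this was replicate 1 for Pth, at 143500 CPM or 12.1% of reads. Replicate 3 stood apart for Tbx1 at 24.6 CPM, and replicate 2 for Apba2 at 0.0944 CPM, which is a single read. Elsewhere single libraries stood apart for Dsc1 in experiment 2 (6.19 CPM), for Fgfr1 in experiment 2 (59.8 CPM), and for Fh1 in experiment 3 (103 CPM). In experiment 1 they did so for the mitochondrial share (2.65%) and the share of the 10 most abundant genes (31.5%).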

How the results depend on the processing

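The 13 calls moved to 231 with DESeq2 (72 higher, 159 lower), 25 with all 32 libraries, and 24 with limma on log2(TPM + 1) or log2(TPM + 0.1). They moved to 2 with the replicate block, each among the 13. Limma voom with experiment as random effect gave 2 calls, 0 of them among the 13. There were 0 calls with 2 groups, with counts summed per experiment and without experiment 1. There were also 0 calls without both experiment 1 and replicate 4 of experiment 2, the library rich in fibroblast markers (886 unadjusted, added after the data were seen). They were 5 without experiment 2, 52 without experiment 3, and 3 to 23 with 1 library left out (3, 6, 8 and 4 without replicates 1, 2, 3 and 4 of experiment 4; 8 without experiment 2 replicate 2; 23 and 21 without replicate 1 of experiments 1 and 3). The replicate block changed experiment 2 against the others to 6 calls; libraries share only a number, since 0 of 24 same-number pairs had a correlation of deviations above 0.1 (-0.0497 to 0.0587) and 2 of 16 libraries correlated best with their own number. Genes called against each experiment numbered 28 with DESeq2, 1 without experiment 2, 26 without experiment 3, and 0 to 0 with 1 library left out. Parathyroid calls numbered 3 with DESeq2, 1 without experiment 3, and 0 to 1 with 1 library left out.

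Between experiments 4 and 1, DESeq2 called 801 genes and the TPM fits 314 and 302 (84 to 275 with 1 library left out). Between 4 and 2 there were 216 with DESeq2, 26 with no filter, 28 with a stricter filter, 25 with log2(TPM + 1), 36 without experiment 3, 4 without experiment 1 and the fibroblast-rich library, and 2 to 29 with 1 library left out. Between 4 and 3 there were 103 with DESeq2, 2 with log2(TPM + 1), 1 without experiment 2, and 0 to 0 with 1 library left out. Experiment 1 against the others gave 1003 with DESeq2, 500 with log2(TPM + 0.1), and 180 to 363 with 1 library left out. Experiment 2 gave 178 with DESeq2, 38 with no filter, 29 with all 32 libraries, 22 with log2(TPM + 1), and 1 to 14 with 1 library left out. Experiment 3 gave 155 with DESeq2, 21 with the stricter filter, 31 and 24 with the TPM fits, and 4 to 18 with 1 library left out.

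The mitochondrial difference was 1.11 points without experiment 2 (adjusted exact permutation p = 0.0606) and 0.805 to 1.27 with 1 library left out. The difference in the share of the 10 most abundant genes was -0.266 without experiment 1 and -0.383 to 1.22 with 1 library left out. The ribosomal median ran from -0.00794 to 0.262.

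Signs near 0 changed. Eya1 was at -0.0016 with DESeq2, -0.0017 with RLE scaling, -0.0023 without Pth and Chga in library sizes, -0.00073 with no filter, -0.026 with the replicate block, -0.043 with 2 groups, -0.017 with summed counts, -0.0048 with X- and Y-linked genes, -0.025 and -0.024 with TPM, -0.20 without experiment 1, -0.037 without experiment 3, -0.16 without experiment 1 and the fibroblast-rich library, and -0.14 to 0.16 with 1 library left out. Men1 was at -0.16 and -0.18 with TPM, -0.087 without experiment 3, and -0.21 to 0.35 with 1 library left out. Hoxa3 was at 0.11 with voom and -1.16 to 0.20 with 1 library left out. Fgfr1 was at 0.00062 without experiment 1, 0.26 without it and the fibroblast-rich library, and -0.45 to 0.25 with 1 library left out. Pax9 was at -0.079 and -0.084 in these same fits, and Gcm2 at 0.011 without experiment 3. The causes of these changes were not tested.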

Other observations

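The median log2 fold change of experiment 4 against experiments 1, 2 and 3 was taken for each of the 19 autosomes, a description added after the data had been seen. Over 6165 genes with a mean above 20 CPM the medians ran from -0.08 on chromosome 7 (477 genes) to 0.10 on chromosome 18 (157 genes), around 0.02 for all. Fh1 and Sdccag8, both higher in every library of experiment 4 than in all 12 others, lie on chromosome 1, whose median was 0.10 over 342 genes. Sdccag8, which encodes a centrosomal protein, stood at 152, 69.5, 82.5 and 65.8 CPM, against 24.6 to 64.7 in the others (log2 fold change 1.23, SE 0.27, edgeR adjusted p = 0.0926, unadjusted p = 0.000265).

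The orphan nuclear receptor gene Nr4a3 stood at 3.73, 37.1, 23.3 and 4.22 CPM in experiment 4 and at 3.84 or less in the other 12 libraries (log2 fold change 5.27, SE 1.30, edgeR adjusted p = 0.161). Its relative Nr4a1 stood at 0, 97.9, 59.8 and 5.44 CPM against 0 to 161 in the others, so replicates 2 and 3 were the higher ones in both. Fos, another immediate early gene, stood at 35.8, 23.3, 124 and 28.6 CPM against 2.02 to 262. Of 15 tested immediate early genes 3 were above 0, with a median of -0.29. The antiviral gene Oas1a had 0 reads in experiment 4 and 1068 in the others, which were at least 109.9-fold higher against a floor of 3 reads over experiment 4, with an edgeR adjusted p of 0.219. It was also at 0 in 1 library each of experiments 2 and 3. Among 17 tested interferon-stimulated genes 0 were called, beside 0.111% of all genes. In log2 fold change 8 were above 0 and 9 below, with a median of -0.08 beside 0.03 over all genes. The median was -1.14, 0.25 and -0.07 against experiments 1, 2 and 3. An unadjusted p below 0.05 was found for 3, all lower (17.65% beside 8.37% of all genes). Of 5 tested skeletal muscle markers 0 were called, beside 0.111% of all genes. In log2 fold change 3 of the 5 were above 0 and 2 below, with a median of 0.31 beside 0.03 over all genes. Actn3, a sarcomeric actinin gene, was among the lower ones. It stood at 69.0, 36, 45.1 and 49.1 CPM against 46.3 to 201 (edgeR adjusted p = 0.122).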
